A study of Mus musculus with 16 samples.

Results

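The 8 transcription factors described here, Hnf4a, Hnf4g, Creb3l3, Maf, Prdm1, Nr5a2, Elf3 and Klf5, are known regulators of the enterocyte, the absorptive cell of the small intestine. They were chosen by name, and each had 1 of the 48440 gene rows in the tables of all 3 gut segments. Enterocytes arise from Lgr5-expressing stem cells of the crypt, and on the villus they carry the enzymes and transporters that digest and absorb food. HNF4A and HNF4G are paired nuclear receptors that together switch on much of this program, CREB3L3 is a membrane-bound factor that drives genes for lipid export, and MAF and PRDM1 act in maturing villus and fetal-type enterocytes. NR5A2 is a crypt nuclear receptor, and ELF3 and KLF5 are epithelial factors of the Ets and Krüppel-like families.

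RNA-Seq was available from sorted GFP+ cells of Lgr5-EGFP mice. Their green fluorescent protein is driven by the Lgr5 gene, so that bright cells are ISCs (intestinal stem cells) and progenitors that inherit the protein. All mice were female, had eaten a 60% fat diet for 16 weeks, and were killed 4 weeks after vertical sleeve gastrectomy (VSG), which removes most of the stomach, or after sham surgery, in which the stomach was only pressed. After an overnight fast they received a liquid meal 15 min before the tissue was taken, and 6 cm of each segment was used. For the duodenum as for the jejunum there were 6 libraries, 4 of VSG mice and 2 of sham mice, and these 6 mice were the same in both. For the ileum there were 4 libraries, 2 of each kind. A given VSG replicate number means the same mouse wherever it appears, as does a given sham replicate number, but the numbers do not link VSG mice to sham mice.

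Implied depth ran from 10.9 to 63.6 M reads per library. In the jejunum, VSG replicate 1 had 196951 normalized counts of the ileal gene Fabp6, against 15.8 to 313 in the other jejunal libraries, and no Lgr5 was counted (value 0) in sham replicate 1. In that sham library the 10 stem cell genes summed to 17762 normalized counts, against 49026 to 67065 in the other jejunal libraries, and the 42 enterocyte genes described below summed to 4029640, against 1120734 to 1807798. Jejunal estimates of the factors are therefore also given without these libraries. Lgr5 was also at 0 in ileal sham replicate 1. In bulk RNA of this kind, fewer cells of a type and less RNA per cell cannot be told apart.

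RNA of all 8 factors was counted in the sorted cells, over a wide range, but Prdm1 was at 0 in several libraries. Divided by the length of the longest coding transcript, the duodenal levels were highest for Elf3, with 15196 ± 3321 normalized counts per kb (SD, n = 6), followed by Hnf4a with 8083 ± 1580, Creb3l3 with 5258 ± 1825, Klf5 with 3578 ± 302, Hnf4g with 3534 ± 852, Maf with 1387 ± 523 and Nr5a2 with 599 ± 119. Prdm1 was by far the lowest, with 21 ± 26.4 per kb. Elf3 was above Hnf4a in 6 of 6 duodenal libraries, whereas Klf5 and Hnf4g could not be ordered, since Klf5 was the higher in 4 of 6 and their places change when all exons are counted. In the jejunum, Elf3 (9825 ± 1795) was again the highest of the 8, and Hnf4a (6139 ± 1117) and Creb3l3 (5920 ± 4391) lay within their spread. In the ileum (n = 4), Hnf4a (4587 ± 444), Elf3 (4271 ± 1254) and Maf (3617 ± 1462) were not separated by their spread, and Creb3l3 was sixth, with 1157 ± 661 per kb. The segments were normalized separately, so these levels are an order within a segment and not a gradient along the gut.

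**Figure D1:**
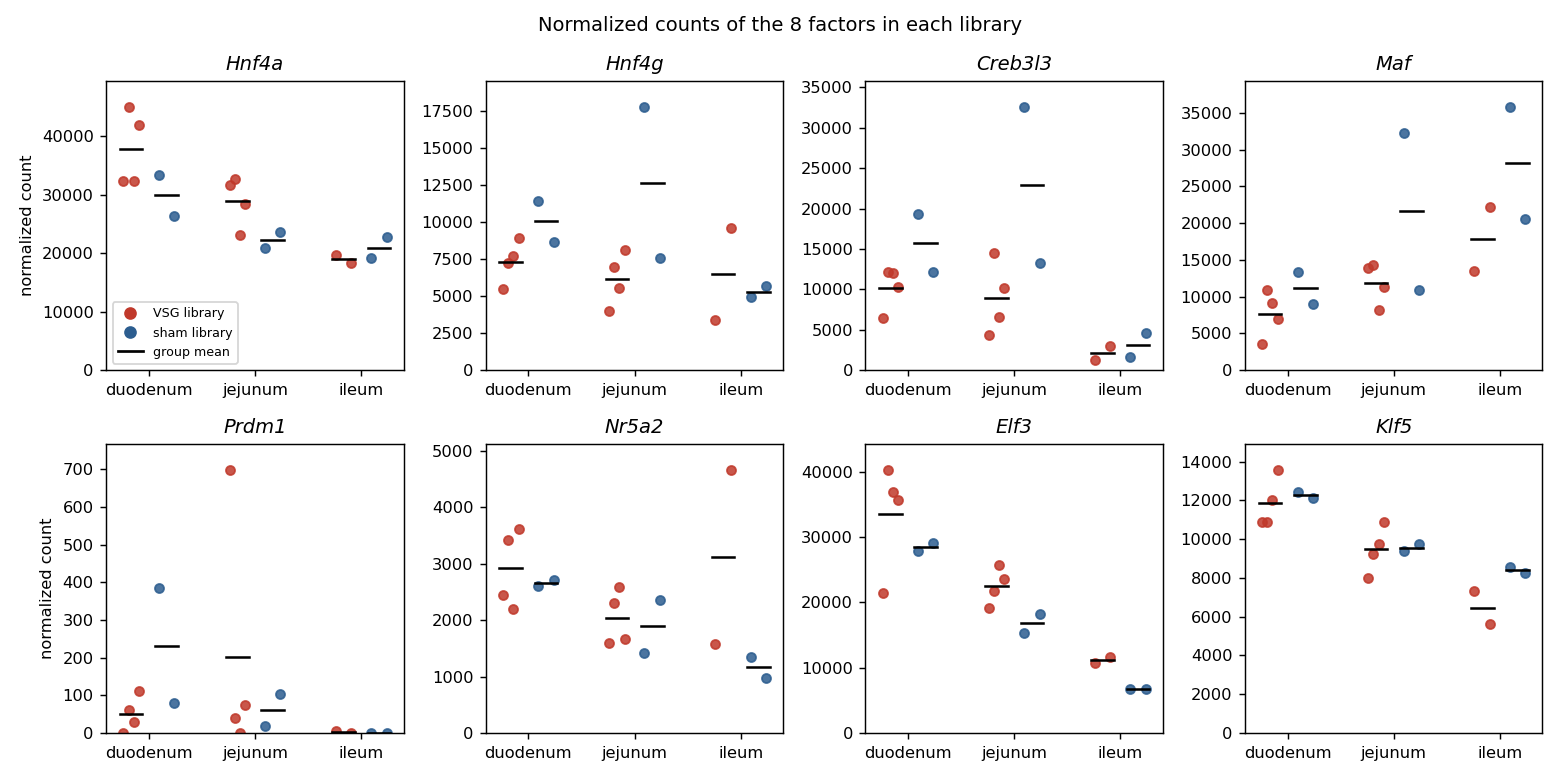
Normalized counts (y axis, linear, starting at 0) of the 8 factors in each library of the duodenum, jejunum and ileum. Each red point is a VSG library, each blue point a sham library, and black lines are group means; in the jejunum the upper sham point of Hnf4g, Creb3l3 and Maf is sham replicate 1.

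After VSG, none of the 8 factors changed at the thresholds used (p under 0.05, adjusted p under 0.2, absolute log2 fold change above 0.5 and a mean above 50), in any segment. The thresholds called 0.0237% of 16867 tested duodenal genes and 0.0126% of 15857 jejunal genes. Of 13853 ileal genes they called 0, or 0%, although at an unadjusted limma p under 0.05 there were 165 lower and 290 higher, and limma without its variance trend called 463. In limma's test with Benjamini-Hochberg adjustment, the smallest adjusted p among the factors was 0.845 for the duodenal, 0.76 for the jejunal and 0.736 for the ileal libraries. Before adjustment, Hnf4g and Creb3l3 in the jejunum were the only factor and segment pairs with a p under 0.05, both lower after VSG, where 2.4% of all jejunal genes were lower and 3.63% higher at that p. The 8 duodenal factors had a median log2 fold change of -0.26, against 0.01 for all genes tested. The medians in the jejunum (-0.13 against 0.11 for all genes) and in the ileum (-0.13 for the 7 factors tested, against 0.24) changed sign under other settings. Exact permutation tests of single factors could not go below a two-sided p of 0.0667 with 4 against 2 libraries, or 0.333 with 2 against 2.

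Hnf4a (ENSMUSG00000017950, chr2:163506808-163572910 of GRCm38, plus strand) had a higher mean after VSG in the upper gut, with overlapping groups. In the duodenum its normalized counts were 32449, 44979, 32315 and 41893 after VSG (replicates 1 to 4, here and throughout) and 33442 and 26370 after sham surgery. In the jejunum they were 31680, 32684, 23150 and 28482 after VSG and 20973 and 23628 after sham surgery. The groups overlapped in both segments, with the VSG mean above the sham mean. The log2 fold change was 0.34 (SE 0.24, 95% interval -0.20 to 0.88, limma adjusted p = 0.88) in the duodenum and 0.37 (SE 0.33, -0.36 to 1.09, adjusted p = 0.799) in the jejunum, where it was 0.24 without VSG replicate 1 and sham replicate 1. In the ileum, where the VSG libraries are replicates 4 and 5, the values were 19754 and 18343 after VSG and 19124 and 22771 in the sham mice, a log2 fold change of -0.13 (SE 0.28).

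Hnf4g (ENSMUSG00000017688, chr3:3508030-3658052, plus strand), the paralog of Hnf4a, had estimates of the opposite sign in these segments. In the duodenum it had 5495, 7231, 7684 and 8911 normalized counts after VSG and 11436 and 8648 after sham surgery, so that 3 of the 4 VSG libraries were below both sham libraries. In the jejunum the VSG libraries had 3960, 6977, 5576 and 8073 and the sham libraries 17727 and 7588. Sham replicate 1 stood far above the other 5 jejunal libraries, and sham replicate 2 lay inside the VSG range. The log2 fold change was -0.46 in the duodenum (SE 0.25, 95% interval -1.03 to 0.10, limma adjusted p = 0.859), which is 1.38-fold lower, and -0.26 without sham replicate 1. It was -0.97 in the jejunum (SE 0.42, -1.91 to -0.02, adjusted p = 0.76), but -0.35 without sham replicate 1 and -0.16 without both sham replicate 1 and VSG replicate 1. Without sham replicate 2 it was -1.58 with an adjusted p of 0.15, past the thresholds. In the ileum the values were 3402 and 9605 after VSG and 4919 and 5686 after sham surgery, with the VSG libraries on either side of the sham libraries (log2 fold change 0.11, SE 0.58).

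The balance of the paralogs can be read within each library, where a common scaling cancels. This ratio was formed after the values had been seen, and it is given as a description with no test. In the duodenum, Hnf4g over Hnf4a was 0.169, 0.161, 0.238 and 0.213 after VSG and 0.342 and 0.328 after sham surgery. In the jejunum it was 0.125, 0.213, 0.241 and 0.283 after VSG and 0.845 and 0.321 after sham surgery. Every VSG library was thus below every sham library in both segments. Setting aside the jejunal sham replicate 1 and VSG replicate 1 cannot undo this, and it leaves 0.321 as the only jejunal sham value. The same mice gave both segments, and how often ratios of other genes separate in this way was not tested. In the ileum the VSG libraries had 0.172 and 0.524 and the sham libraries 0.257 and 0.250, with no separation.

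**Figure D2:**
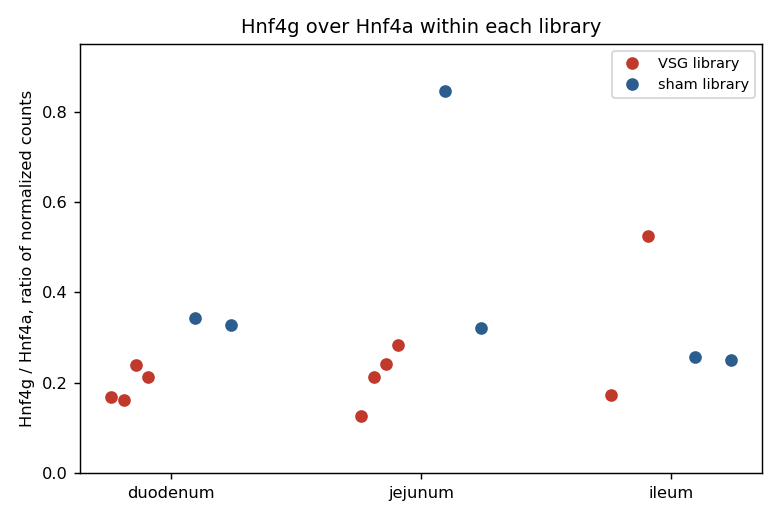
Ratio of the normalized counts of Hnf4g to those of Hnf4a (y axis, linear, starting at 0) in each VSG (red) and sham (blue) library of the 3 segments. In the duodenum the VSG libraries lie between 0.161 and 0.238 and the sham libraries at 0.342 and 0.328; in the ileum the VSG libraries lie on both sides of the sham libraries.

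HNF4 factors bind a direct repeat whose HNF4-specific form is CAAAGTCCA. In RefSeq promoter windows of GRCm38.p6, limited here to the 250 bases before the gene start, these letters were found on either strand in 126 of 32851 windows, or 0.38%. Of the 42 enterocyte genes, 34 had a window (35 windows in all), and 3 of these windows, 8.57%, held the motif, those of the intestinal alkaline phosphatase Alpi, the amino acid transporter subunit Slc3a1 and the trehalase Treh. They are printed 5′ to 3′ on the strand of the gene, with the motif in capitals, to show what such a match looks like in genes that were measured here.
Alpi (chr1:87101607-87101665, minus strand): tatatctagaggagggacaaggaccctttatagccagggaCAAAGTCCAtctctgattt
Slc3a1 (chr17:85028268-85028326, plus strand): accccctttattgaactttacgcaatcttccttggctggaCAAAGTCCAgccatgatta
Treh (chr9:44673122-44673180, plus strand, motif on the opposite strand): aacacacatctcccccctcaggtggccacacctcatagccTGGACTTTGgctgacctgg
The motif begins 19 bases upstream of the gene start in Alpi, 39 in Slc3a1 and 71 in Treh. Alpi was lower in every VSG library than in any sham library in the duodenum (22048 to 40213 against 68658 and 76945) and in the jejunum (8514 to 11852 against 20838 and 47015), and so was Treh (3168 to 5894 against 7490 and 13213, and 1994 to 7450 against 7976 and 26919). Slc3a1 overlapped in the duodenum, with 1826 to 4019 after VSG and 3917 and 6416 after sham surgery. None of these passed the adjusted threshold, the smallest limma adjusted p being 0.336 for Alpi in the duodenum. Among all genes, 8.01% in the duodenum and 6.21% in the jejunum were lower without overlap, as were 21 and 8 of the 42 enterocyte genes. Whether the motif bears on these values was not tested. Promoter windows were available for 5 of the 8 factors, Hnf4a, Creb3l3, Prdm1, Nr5a2 and Elf3, and the HNF4 motif was found in none of their 8 windows. Of 6 other motifs searched on both strands (CAAAGGNCA for a looser HNF4 site, TCAAGGTCA for NR5A2, TGACGT for factors of the CREB kind, CAGGAAG for Ets factors, and GGGGCGGGG and CACACCC for Krüppel-like factors), only the Ets motif occurred in windows of the factors, in those of Hnf4a and Nr5a2, and it was present in 10.82% of all windows. A match says only that the letters are present.

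Creb3l3 (ENSMUSG00000035041, chr10:81084324-81098874, minus strand), which encodes a factor for apolipoprotein and other lipid genes, had the lowest jejunal estimate of the 8 factors. Its duodenal normalized counts were 6401, 12110, 12081 and 10266 after VSG and 19280 and 12109 after sham surgery. All VSG libraries were at or below the lower sham library except VSG replicate 2, whose value was almost equal to it. The log2 fold change was -0.63 (SE 0.31, 95% interval -1.33 to 0.08, limma adjusted p = 0.845), and it was -0.29 without sham replicate 1 and -0.96 without sham replicate 2. In the jejunum the values were 4387, 14465, 6557 and 10140 after VSG and 32525 and 13272 after sham surgery, again with sham replicate 1 far above the rest. There the log2 fold change was -1.37 (SE 0.52, -2.52 to -0.22, adjusted p = 0.76), or 2.58-fold lower, but it was -0.72 without sham replicate 1 and -0.43 without both that library and VSG replicate 1. In the ileum, with 1309 and 2976 after VSG and 1663 and 4647 after sham surgery, the groups overlapped (-0.49, SE 0.74).

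The targets listed for Creb3l3 can be set beside it. Of 5 genes, 4 were tested in the duodenum, all 4 with a negative log2 fold change and with a median of -1.12, and 3 were lower without overlap, against 49.3% of all duodenal genes negative and 8.01% lower without overlap. The listed lipid genes of the enterocyte, which include Apoa1, Apoa4 and Apoc2, were alike: 14 of 14 were negative there and 10 were lower without overlap. Apoc2, an activator of lipoprotein lipase, had 3835, 5651, 6588 and 2562 after VSG and 18069 and 9897 after sham surgery, and Apoa4, a chylomicron protein, had 46960, 78909, 93539 and 31652 against 195722 and 117097. Both lay wholly below the sham libraries, by -1.61 (SE 0.40, limma adjusted p = 0.456) and -1.40 (SE 0.44, adjusted p = 0.56) on the log2 scale. In the jejunum the same 4 genes had a median of -1.95, with none of them free of overlap. Their summed normalized counts there were 893348 in sham replicate 1, whereas sham replicate 2, with 320085, lay inside the VSG range of 132459 to 432736. In the ileum the median was -0.22. The fifth gene, Fgf21, was listed at 0 in every library.

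Maf (ENSMUSG00000055435, chr8:115682942-115707794, minus strand) had a lower mean after VSG in each segment, with overlap in each. The duodenal normalized counts were 3623, 10921, 9202 and 6935 after VSG and 13320 and 8934 after sham surgery (log2 fold change -0.62, SE 0.41, limma adjusted p = 0.88), and the estimate was -0.30 without VSG replicate 1 and -0.33 without sham replicate 1. The jejunal values were 13930, 14266, 8149 and 11345 after VSG and 32255 and 10909 after sham surgery (-0.69, SE 0.45, adjusted p = 0.76). The jejunal estimate came to 0.09 without sham replicate 1 and to 0.01 without both libraries that stand apart, and to -1.47 (adjusted p = 0.129) without sham replicate 2. In the ileum Maf had 13480 and 22233 after VSG and 35735 and 20570 after sham surgery (-0.65, SE 0.42, adjusted p = 0.736), with a single VSG library inside the sham range.

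Prdm1 (ENSMUSG00000038151, chr10:44437177-44528501, minus strand) encodes a repressor that holds back the switch from suckling to adult enterocytes and also acts in lymphocytes and plasma cells. It was low in most libraries and at 0 in several. The duodenal libraries had 0, 61.3, 29.1 and 112 normalized counts after VSG and 384 and 79.7 after sham surgery, with overlap and a wide 95% interval of -7.68 to 1.6 around a log2 fold change of -3.04 (SE 2.06), which was -1.56 without VSG replicate 1. The jejunal libraries had 698, 39.7, 0 and 73.0 after VSG and 18.4 and 103 after sham surgery, the highest being VSG replicate 1. The log2 fold change there was -0.24, and -2.85 without VSG replicate 1 and sham replicate 1. The ileal values were 6.05, 0, 0 and 0, below the mean of 10 needed for testing. A value of 0 allows up to 3 reads, which are worth 1.76 to 6.21 normalized counts depending on the library, counting error only. A list of 15 immune genes summed in the duodenum to 224 to 1730 normalized counts after VSG and to 27.6 to 165 after sham surgery. In the jejunum the sum was 868 in VSG replicate 1, where Prdm1 was also highest, and 254 to 539 in the other libraries. The part of immune cells in the Prdm1 values was not tested. Of the 6 genes listed for Prdm1 as genes of the suckling to adult switch, Lct (lactase) had 4778 to 21298 after VSG and 34881 and 51613 after sham surgery in the duodenum, whereas Ass1, an enzyme of arginine synthesis that marks suckling gut, had 310, 291, 275 and 264 after VSG and 0 and 13.7 after sham surgery. Of the 6, 5 had a negative log2 fold change in the duodenum and 3, lactase among them, were lower without overlap, against 8.01% of all genes. The urea cycle gene Ass1 alone was higher without overlap, against 6.44% of all genes. Lactase is also 1 of 13 listed brush border genes, of which 13 were negative in the duodenum and 7 lower without overlap. In the jejunum, Ass1 overlapped, with 49.3 to 929 after VSG and 94.6 and 301 after sham surgery.

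Nr5a2 (ENSMUSG00000026398, chr1:136842571-136960448, minus strand), known for its part in crypt renewal and in bile acid and steroid genes, had estimates near 0 in the upper gut. The duodenal values were 2450, 3416, 2193 and 3617 normalized counts after VSG and 2606 and 2720 after sham surgery (log2 fold change 0.10, SE 0.29, 95% interval -0.55 to 0.75). In the jejunum it had 1599, 2302, 2583 and 1661 after VSG and 1423 and 2358 after sham surgery (0.12, SE 0.40, -0.78 to 1.02, and -0.14 without both libraries that stand apart). In the ileum both VSG libraries, at 1575 and 4663, were above both sham libraries, at 1351 and 971, but the VSG values were 2.96-fold apart and the log2 fold change of 1.24 (SE 0.71) had a limma adjusted p of 0.736. In the ileum 17% of all genes had every VSG library above every sham library and 11.6% had every VSG library below, so such a separation is common with 2 against 2. Pancreas genes, which could accompany Nr5a2 RNA from that organ, summed to only 161 to 205 normalized counts after VSG and 0 to 362 after sham surgery in the ileum, and to 1225 to 12683 and 1651 to 1737 in the duodenum, and their part in the Nr5a2 values was not tested. Of the 5 genes listed for Nr5a2, 4 were tested in the duodenum, with log2 fold changes of -2.39 to 0.43, and only the cyclin Ccnd1 was above the sham libraries in all 4 duodenal VSG libraries (3900 to 6087 against 3403 and 3791), with a limma adjusted p of 0.874. Among all duodenal genes 6.44% were higher without overlap.

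Elf3 (ENSMUSG00000003051, chr1:135253575-135258568, minus strand), which among other roles acts in the maturation of absorptive and goblet cells, had a higher mean after VSG in each segment. In the jejunum its normalized counts were 19163, 21766, 25704 and 23549 after VSG and 15381 and 18226 after sham surgery. In the ileum they were 10785 and 11672 after VSG and 6672 and 6750 after sham surgery. Every VSG library was above every sham library in both segments, which held for 6.59% of all jejunal genes and for 17% of all ileal genes. The log2 fold change was 0.42 (SE 0.31, exact permutation p = 0.0667, the smallest possible) in the jejunum and 0.74 (SE 0.33, exact p = 0.333, also the smallest possible) in the ileum, and neither passed limma's test (adjusted p = 0.761 and 0.736). Without both libraries that stand apart, the jejunal log2 fold change was 0.37, and leaving out libraries cannot undo a separation. In the duodenum 3 VSG libraries, with 40306, 36987 and 35644, were above the sham libraries, with 27966 and 29125, and VSG replicate 1, with 21438, was below them (0.19, SE 0.28). Goblet cell genes summed to 202865 to 388489 after VSG and 106253 to 231668 after sham surgery in the jejunum, and to 146270 to 191380 and 81110 to 135957 in the ileum. Their part in the Elf3 values was not tested.

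Klf5 (ENSMUSG00000005148, chr14:99298691-99315036, plus strand), a factor of proliferating crypt cells, varied least in the duodenum and the jejunum, 1.25-fold and 1.36-fold from the lowest to the highest library. The duodenal values were 10897, 10886, 12012 and 13568 normalized counts after VSG and 12434 and 12115 after sham surgery, and the jejunal values 8014, 9258, 9759 and 10880 and 9371 and 9749. The log2 fold changes were -0.06 (SE 0.20, 95% interval -0.51 to 0.39) and -0.02 (SE 0.29, -0.67 to 0.63), the latter 0.03 without both libraries that stand apart. In the ileum the VSG libraries, at 7315 and 5628, were below the sham libraries, at 8575 and 8258 (-0.39, SE 0.36, limma adjusted p = 0.736). Of all ileal genes, 11.6% were lower without overlap. A list of 8 proliferation genes also overlapped between the groups in the duodenum, with sums of 40397 to 65201 after VSG and 42239 to 58357 after sham surgery.

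**Figure D3:**
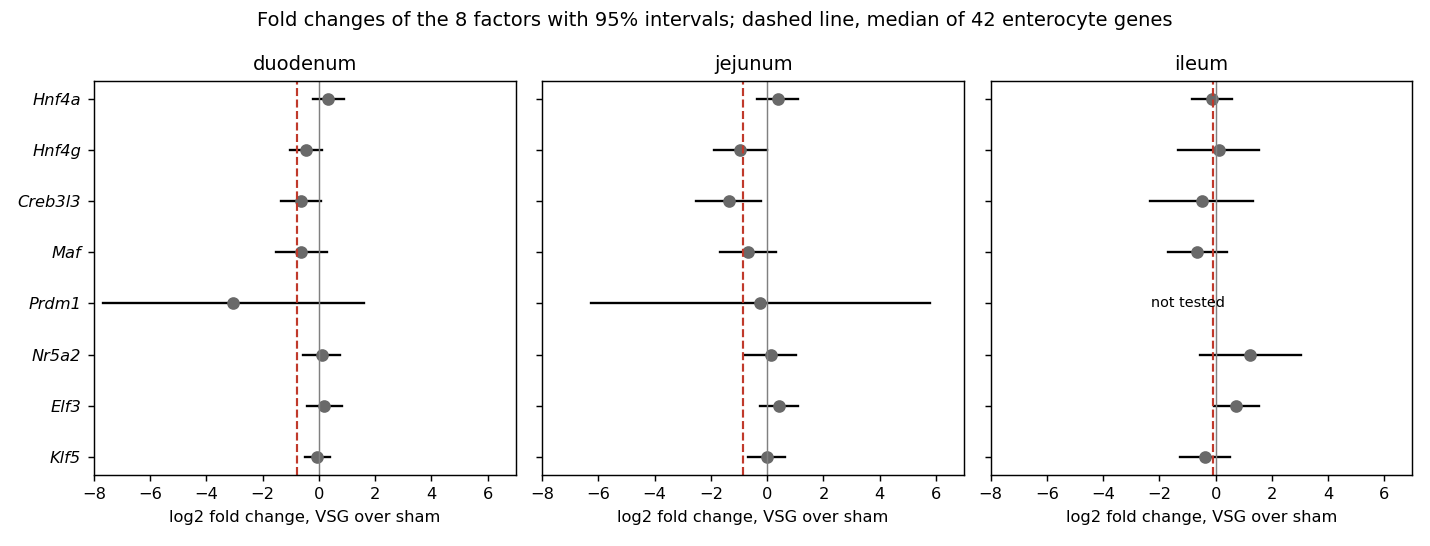
Log2 fold change of VSG over sham (x axis) with its 95% interval for each factor (y axis), in the duodenum, jejunum and ileum; points are limma estimates and the dashed line is the median of the 42 enterocyte genes. All intervals include 0 except those of Hnf4g and Creb3l3 in the jejunum, whose estimates were -0.16 and -0.43 without sham replicate 1 and VSG replicate 1, and Prdm1 was not tested in the ileum.

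The study's tables allow the factors to be set against the genes of the mature enterocyte, which in the duodenum were lower after VSG as a body. Of 42 enterocyte genes tested there, 42 had a negative log2 fold change, with a median of -0.78, and 21 were lower in every VSG library than in any sham library, against 8.01% of all genes. None was higher in every VSG library, against 6.44% of all genes, and 19 were lower at an unadjusted p under 0.05, against 3.48% of all genes lower and 2.79% higher. The 19 became 5 without sham replicate 1, 10 without sham replicate 2 and 6 with the replicate number as a block, while the median stayed negative. The replicate numbers do not link VSG mice to sham mice, so that block pairs no animals. Only Akp3, a duodenal alkaline phosphatase, was called, with 6064, 3280, 7279 and 3816 normalized counts after VSG and 30914 and 29644 after sham surgery (log2 fold change -2.64, SE 0.33, limma adjusted p = 0.196), and without VSG replicate 2 or VSG replicate 4 limma called 0 duodenal genes. By group, the medians were -0.87 for 13 brush border genes, -0.98 for 7 nutrient transporters, -0.88 for 14 lipid genes and -0.55 for 8 genes of structure and metabolism. Among the factors, 0 of 8 were lower in every VSG library. The summed normalized counts of the 42 genes were 672002 to 1428762 after VSG and 1506665 to 2247541 after sham surgery, without overlap, whereas those of the 8 factors were 82752 to 129910 and 100100 to 120867.

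In the jejunum, 40 of the 42 genes had a negative log2 fold change, with a median of -0.87, 10 were lower at an unadjusted p under 0.05 and 8 did not overlap with the sham libraries, against 6.21% of all genes. This rested largely on sham replicate 1, since the median was -0.23 without it and -0.09 without it and VSG replicate 1, and only 1 gene was then lower at that p in either case. In the ileum 23 of 42 were negative, with a median of -0.10, and 3 were lower and 0 higher at an unadjusted p under 0.05, against 1.19% and 2.09% of all genes. Without overlap, 11 were lower and 2 higher there, against 11.6% and 17% of all genes. The factors and the enterocyte list were not tested against each other, and the median of a list carries an error of its own.

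**Figure D4:**
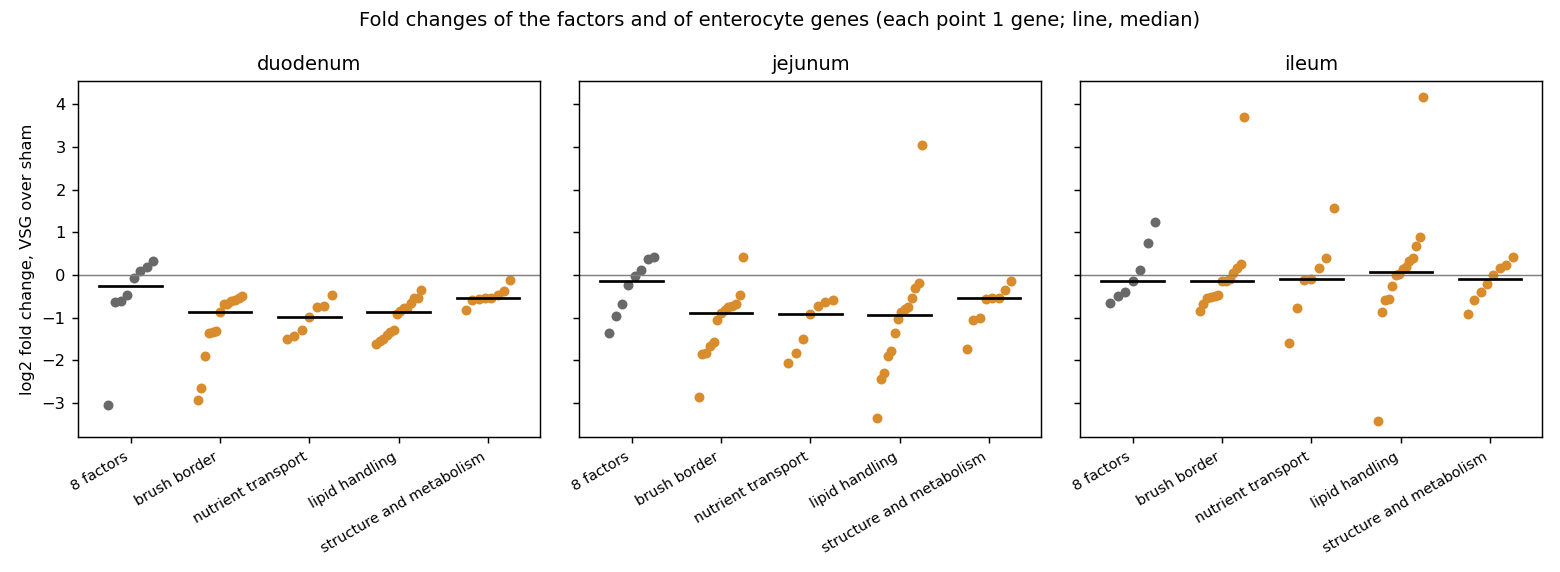
Log2 fold change of VSG over sham (y axis) for each of the 8 factors (dark points, 7 in the ileum) and each enterocyte gene by group (orange points), with medians as lines, in the 3 segments. In the duodenum all 42 enterocyte points lie below 0, with medians between -0.98 and -0.55, and the factors lie on both sides of 0.

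Library by library, Creb3l3, Hnf4g and Maf had the highest correlations with the enterocyte genes in the duodenum. Over the 6 duodenal libraries, Pearson's r between a factor and the mean log2 value of the 42 genes was 0.954 for Creb3l3 (exact permutation p = 0.0139, Spearman's rho 0.829, p = 0.0583), 0.890 for Hnf4g (p = 0.0319, rho 0.657, p = 0.175) and 0.860 for Maf (p = 0.0333, rho 0.771, p = 0.103). Over the 6 jejunal libraries it was 0.963 for Creb3l3 (exact p = 0.00417, rho 1, p = 0.00278), 0.938 for Hnf4g (p = 0.0292, rho 0.771, p = 0.103) and 0.608 for Maf (p = 0.212, rho 0.6, p = 0.242). With adjustment over the 16 relations computed, the permutation p of r was 0.107 for the duodenal relations and 0.0667 for Creb3l3 in the jejunum, whose rho alone stayed under 0.05, at 0.0444. Without the 2 libraries farthest from the median of the enterocyte genes, which leaves 4 libraries over a narrower range, r was 0.690 in the duodenum and 0.866 in the jejunum for Creb3l3. For Hnf4g it was 0.0863 and 0.253, so that its relation rests on those libraries, and whether the factors differ in this was not tested. Maf had 0.294 in the duodenum and 0.827 in the jejunum without them. Centred on the mean of each surgery group, r was 0.973 and 0.943 for Creb3l3, 0.792 and 0.897 for Hnf4g, and 0.906 and 0.418 for Maf. Each of these values pools both surgery groups, so it does not give the direction within each group.

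Hnf4a had an r of -0.301 (exact permutation p = 0.567, rho -0.314, p = 0.564) in the duodenum and -0.609 (exact p = 0.206, rho -0.257, p = 0.658) in the jejunum. Elf3 had 0.168 and -0.426, Klf5 0.379 and 0.421, Nr5a2 -0.164 and -0.101, and Prdm1 0.822 and -0.439, none with an adjusted exact permutation p under 0.148. The libraries of a segment share their normalization, so each r also carries what differs between whole libraries.

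**Figure D5:**
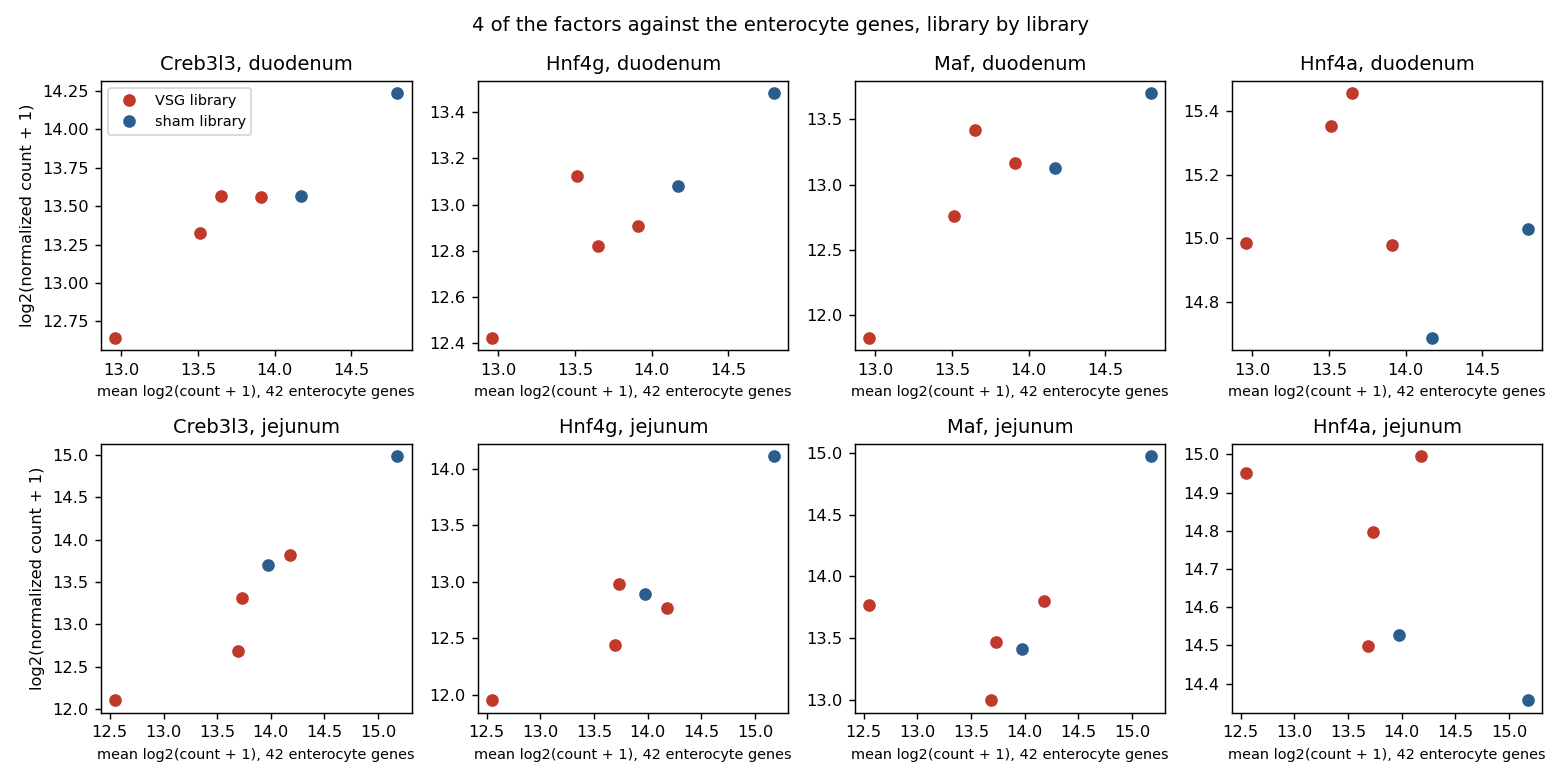
Log2(normalized count + 1) of Creb3l3, Hnf4g, Maf and Hnf4a (y axes, not starting at 0) against the mean log2(normalized count + 1) of 42 enterocyte genes (x axes) in each duodenal (upper row) and jejunal (lower row) library, red for VSG and blue for sham. Creb3l3 rises with the enterocyte genes in both rows, whereas the points of Hnf4a do not.

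Over all 16 libraries, with each gene centred on its segment, the 10712 genes with a mean above 50 in every segment were ranked by their r to each factor. This is a description over libraries that share mice and normalization. Most like Creb3l3 were Cidec (r = 0.918), a lipid droplet gene, Clca4b (0.915) and Lpgat1 (0.914), and most like Maf were Myo15b (0.954), Clic5 (0.947) and the brush border peptidase Anpep (0.946). Hnf4g was followed by Ano6 (0.942), Slc47a1 (0.939) and Slc16a10 (0.939), and genes high in the ranking for Hnf4a included Scd2 (0.817) and Gbp7 (0.809). For Elf3 the genes were Gfi1 (0.874), a secretory lineage factor, Mex3b (0.844) and Nupr1 (0.844). For Nr5a2 they were 9530068E07Rik (0.910), Kdm3b (0.884) and Irgq (0.884), and for Klf5 they were Klhl18 (0.898), Ei24 (0.876) and Npepl1 (0.869). Among the factors themselves, Creb3l3 and Hnf4g had an r of 0.865, whereas Hnf4a and Hnf4g had -0.370. Prdm1 was below the level needed for this ranking.

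Other regulators of the enterocyte and relatives of the factors were looked at in the same way. Of 20 other regulators in the duodenum, 12 had a negative log2 fold change, with a median of -0.11, and 3 were lower and 1 higher without overlap, against 49.3% of all genes negative, 8.01% lower and 6.44% higher without overlap. Ppara, a fatty acid sensor, had 229, 1343, 464 and 1440 normalized counts after VSG and 7862 and 1674 after sham surgery in the duodenum (log2 fold change -2.43, SE 0.83, limma adjusted p = 0.613). In the jejunum it had 449, 798, 756 and 1268 after VSG and 3488 and 1624 after sham surgery (-1.64, SE 0.55, adjusted p = 0.76). The VSG libraries lay below the sham libraries in both segments. Cdx2, a regulator of intestinal identity, overlapped in each segment, with log2 fold changes of -0.11, 0.00 and 0.03. Of 15 relatives, 13 were tested in the duodenum, 1 of them lower and 2 higher without overlap, 14 in the jejunum (1 and 3) and 13 in the ileum (1 and 5), where 17% of all genes were higher without overlap. Chosen for its separated change, Creb3l2 was lower without overlap in the duodenum (765 to 1521 after VSG, 2425 and 3861 after sham surgery) and in the jejunum (511 to 3028 against 3386 and 4649). Creb3l4 was higher without overlap in all 3 segments, with 398 to 606 against 251 and 331 in the duodenum, 545 to 1169 against 257 and 526 in the jejunum, and 339 and 540 against 0 and 24.8 in the ileum. None of these passed the adjusted threshold.

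Whether the VSG effect on a factor differed between the jejunum and the duodenum was tested on each mouse's difference between them, over 4 VSG and 2 sham mice. The differences ran from -0.74 (SE 0.49, 95% interval -1.96 to 0.48, limma adjusted p = 0.985) for Creb3l3 and -0.50 (SE 0.42, -1.54 to 0.54, adjusted p = 0.985) for Hnf4g to 0.23 (SE 0.42) for Elf3 and 2.80 (SE 4.05) for Prdm1. No factor had an unadjusted p under 0.05, against 4.23% of 14718 genes.

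Genes of other cell types were read in the same libraries, and none of the tuft, goblet or stem cell genes was called in the duodenum (smallest limma adjusted p 0.292, 0.555 and 0.835). All 7 tuft cell genes had a positive log2 fold change in the duodenum, summing to 15960 to 32749 normalized counts after VSG and 4829 to 12374 after sham surgery, and all 8 goblet cell genes did too, with overlapping sums of 115355 to 301896 and 99116 to 174391. The 10 stem cell genes overlapped in the duodenum, with 85068 to 173943 and 111310 to 119387. In the ileum, Elf3 and Nr5a2 were also higher without overlap. The stem cell genes there summed to 14677 to 20104 after VSG and 6692 to 9795 after sham surgery. Of 9 tested, 5 were higher and 1 lower without overlap, against 17% and 11.6% of all ileal genes. The median log2 fold change of all ileal genes was 0.24. No ileal stem cell gene was called (smallest limma adjusted p 0.736), and Lgr5 was at 0 in ileal sham replicate 1. The part of tuft, goblet and stem cells in the values of the factors and of the enterocyte genes was not tested.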

How the data were processed

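RNA-Seq of GFP+ cells from 7 mice was used as 16 libraries, each 1 segment of 1 mouse. The authors used STAR v2.5.3a (alignment to mm10) and Salmon v0.6.0 (quantification), set aside libraries that mapped poorly, and deposited signal values, namely DESeq2-normalized counts made separately per segment. Values under 40 were mostly whole reads divided by 1 factor per library, but of values above 400 only 26.4% to 30.7% were within 0.02 of a whole number, so no count model was run. A further deposited table per segment holds the authors' mean, log2 fold change, standard error, p-value and adjusted p-value, and was not used.

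Each segment was fitted with limma 3.58.1 (R 4.3.3, variance trend) on log2(x + 1) of the deposited values x, for genes whose mean exceeded 10, with Benjamini-Hochberg adjustment over all of them. The calling thresholds follow the study's methods. Intervals are 95% limma intervals. Permutation tests were exact and two-sided, over 15 splits (4 against 2) or 6 (2 against 2). Positions and lengths came from GENCODE M21, which matched 48058 identifiers. The fits were tested on simulated data. What 1 read was worth was taken as the most frequent value under 40 in each library, zeros left out. Other steps used Python 3.11.15 (scipy 1.17.1, pandas 2.3.3, numpy 2.4.6) and, for plots, matplotlib 3.10.9.

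The factors and gene lists were chosen with earlier results of these data known. Of each list, the 3 genes most abundant in the duodenum and up to 3 per segment with the largest separated change may be named. Naming of any other gene came after its values had been seen. The alternatives tried were a pseudocount of 0.5 or 10, no filter, a mean above 50, quantile normalization, equal totals, limma without trend, a fit with the replicate number as a block, and fits without single libraries; leaving out both unusual jejunal libraries together was added after seeing the data.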

Additional observations from a re-analysis of the deposited data

Results flagged for a closer look

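Prdm1 in the jejunal VSG libraries had 1 value far from the others, 698 normalized counts in VSG replicate 1 against 0 to 73.0, the only such library among 16 groups of 4 looked at. Chance gives about 1 in 20. The same library carried the ileal gene Fabp6 at 196951 normalized counts. It also had the highest jejunal sum of the 15 immune genes, 868 against 254 to 539 in the other jejunal libraries. Whether either bears on Prdm1 was not tested.

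For 5 listed genes, every VSG library lay on one side of the sham libraries in one segment and on the other side in another, and the difference between segments was not tested. From duodenum to jejunum to ileum, the log2 fold changes were -1.64, -1.77 and 2.77 for Creb3l2, a relative of Creb3l3, and -0.35, -0.66 and 0.94 for Gata6, one of the other regulators. For the fatty acid binding gene Fabp1 they were -0.91, -1.78 and 0.90. Rbp2, a retinol binding gene, had -0.83 in the duodenum and 0.43 in the ileum, and Fgf15, an ileal bile acid signal, had 5.97 in the jejunum and -0.91 in the ileum, the first with 13821 normalized counts in VSG replicate 1 and 51.1 to 368 in the other VSG libraries.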

How the results depend on the processing

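The 2 sham libraries per segment and the 2 ileal VSG libraries limit these data: leaving out 1 of them leaves a lone library in its group, assumed to vary like the others. Depth limits Prdm1 where it is at 0, which allows up to 3 reads. Against 4 duodenal, 2 jejunal and 0 ileal genes called, other settings called 0 to 213, 0 to 2653 and 0 to 731. The highest counts came without sham replicate 1 (213), sham replicate 2 (2653, Hnf4g and Maf among them) and VSG replicate 5 (731). Limma without trend called 43, 61 and 463. The cause was not tested for any value here.

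The duodenal medians of the factors and of the enterocyte genes kept their sign and moved by less than the spread under every alternative run. The number of enterocyte genes lower at an unadjusted p under 0.05 was 12 for duodenal, 3 for jejunal and 0 for ileal libraries with limma without trend, against 19, 10 and 3. With quantile normalization it was 6 in the jejunum and 1 in the ileum. Leaving out single libraries gave 5 (sham replicate 1) to 20 in the duodenum, 1 (sham replicate 1) to 19 (sham replicate 2) in the jejunum and 0 (VSG replicate 4 or sham replicate 2) to 2 in the ileum. Leaving out both unusual jejunal libraries gave 1. The jejunal enterocyte median was -1.64 (sham replicate 2) to -0.23 (sham replicate 1) with single libraries left out and -0.09 without both, and the ileal one -0.60 (VSG replicate 5) to 0.38 (VSG replicate 4), 0.04 with quantile normalization and 0.01 with equal totals. The jejunal median of the factors was 0.05 with a pseudocount of 10, 0.08 with equal totals and -0.36 to 0.23 (sham replicate 2) with single libraries left out. The ileal median was 0.03 with quantile normalization and -0.25 to 0.22 (sham replicate 2) with single libraries left out.

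Single factors near 0 changed sign. Klf5 was 0.02 in the duodenum with quantile normalization and 0.02 with equal totals, and in the jejunum 0.15, 0.21, 0.03 without both libraries, and -0.09 to 0.06 without single ones. Nr5a2 was -0.01 to 0.23 in the duodenum and -0.24 to 0.49 in the jejunum without single libraries, and -0.14 without both. Maf in the jejunum was -1.47 to 0.09, and 0.01 without both. Prdm1 in the jejunum was 0.38 with a pseudocount of 10 and -1.64 to 1.51 without single libraries, and its difference between segments was -0.07 (VSG replicate 1) to 5.14 without single mice. In the ileum Hnf4a was 0.03 with quantile normalization, Hnf4g -0.64 to 0.86 and Creb3l3 -1.24 to 0.25 without single libraries.

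The numbers of VSG and sham mice name different animals, and same-numbered libraries correlated at -0.049 to 0.054, so they share only a number. The block called no factor. With a replicate block the enterocyte counts were 6 in the duodenum and 0 in the jejunum, Prdm1 in the jejunum was 1.91, and 0 genes were called in either segment. VSG and sham mice could not be paired in any segment. No block was fitted in the ileum, where the VSG and sham libraries share no number.

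Of 16 relations with the enterocyte genes, 3 had an adjusted permutation p of Pearson's r under 0.05 with summed counts and 1 with equal totals, against 0. Without the 2 farthest libraries r changed sign for Prdm1 (-0.314), Elf3 (-0.736) and Klf5 (-0.234) in the duodenum and for Hnf4a (0.604), Prdm1 (0.493), Nr5a2 (0.237) and Klf5 (-0.707) in the jejunum. Centred on each group it did for Hnf4a (0.431) in the duodenum and Nr5a2 (0.012) and Elf3 (0.175) in the jejunum, and with equal totals for Klf5 (-0.227) in the jejunum.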
